A study of Homo sapiens with 6 samples.

Results

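The genes described here encode the backbone of the basement membrane, leaving aside the laminin-332 chains: the laminin chains LAMA5, LAMB1, LAMB2 and LAMC1, the collagen IV chains COL4A1 and COL4A2, the collagen XVIII chain COL18A1, nidogen-1 (NID1), perlecan (HSPG2) and agrin (AGRN). They were listed by symbol, with earlier results of these data known, so their shares beside all genes are descriptive. All 10 were found among the 19469 genes of the count table, and all 10 passed the filter on low counts. RNA-seq measured them in L3.6pl, a pancreatic carcinoma line grown from a lymph node metastasis and labelled adenosquamous, whose cells were sorted by FACS on surface L1CAM. Both groups came from the same untreated line, with 3 libraries from the L1CAM-positive fraction (L1high) and 3 from the L1CAM-negative fraction (L1low), and the comparison asks how transcription differs between cells with different L1CAM levels. The sample labels write the line as L6.6pl, while the titles write L3_6PL. Nothing in the labels says that the libraries came from separate cultures or sorts, so the p-values measure the spread between these libraries, which may be technical.

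The basement membrane is the thin sheet of matrix on which epithelial cells sit. Laminins are trimers of an alpha, a beta and a gamma chain that polymerise beneath the cell and bind integrins and dystroglycan. Collagen IV forms a second, covalently linked network, which nidogens and the heparan sulfate proteoglycans perlecan, agrin and collagen XVIII tie to the laminin sheet. Epithelial cells and fibroblasts both contribute to it, and carcinoma cells breach it when they invade.

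Of the 10 genes, 5 were called higher in L1low cells at an adjusted p under 0.05 (edgeR's quasi-likelihood test over all 6 libraries, Benjamini-Hochberg adjustment over all genes tested), and none was called lower. Over all 19467 genes tested, 7.95% were called, 4.58% as higher and 3.37% as lower. The called genes were COL4A1, COL4A2, COL18A1, NID1 and HSPG2, which rose from 1.46-fold to 1.89-fold. The 4 laminin chains and AGRN had log2 fold changes from 0.14 to 0.32 and were not called. Without adjustment, 9 of the 10, all but AGRN, had a p under 0.05, as did 23.3% of all genes tested. The median log2 fold change of the 10 genes was 0.43, against -0.0087 over all genes tested, and all 10 values were positive, as were 48.5% of those of all genes tested. In 8 of the 10 the lowest L1low library lay above the highest L1high library. This was so for 15.2% of all genes tested, with 13.7% apart in the other direction and 28.8% in either.

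Each library held between 16334610 and 21064685 counts. Levels are given as CPM, the counts of a gene per 1000000 counts of the library after TMM scaling. L1CAM, the sorting marker, stood at 81.1 ± 10.2 CPM in L1high and 20.5 ± 3.01 CPM in L1low cells (SD, n = 3). All 8 epithelial marker genes were in the table, with a summed level of 4632 to 5252 CPM in L1high and 5136 to 5527 CPM in L1low libraries. They did not move one way: KRT19 was called higher (log2 fold change 0.63), CLDN4 (-0.35) and EPCAM (-0.30) were called lower, and the median of the 8 was -0.026. Of 10 fibroblast markers, 3 were in the table (LUM, COL3A1 and ACTA2), and their summed level was 86.8 to 98.5 CPM in L1high and 140 to 160 CPM in L1low libraries, most of it LUM (lumican), which rose (log2 fold change 0.78). The fibroblast markers DCN, PDGFRA, PDGFRB, FAP, COL1A2, THY1 and POSTN were not among the listed genes, each of which exceeded 1 CPM in at least 2 libraries. Of the endothelial list PECAM1 alone was in the table (11.3 to 11.9 CPM in L1high, 13.2 to 14.7 in L1low), and of the immune list CD68 alone (8.42 to 8.82 and 9.37 to 11.3). The part of these markers in the differences below was not tested.

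COL4A1 and COL4A2 are transcribed away from each other from a common stretch of chromosome 13. The next sequences are the RefSeq bases (GRCh38.p14) before the start sites of COL4A1 and COL4A2, of the 2 other called genes with the largest fold changes, HSPG2 and NID1, and of LAMC1, the member with the smallest change, for comparison. They are written 5′ to 3′ with GC boxes (GGGCGG) and CCAAT boxes (CCAAT), on either strand, in capitals. The COL4A1-COL4A2 stretch is chr13:110307158-110307257 on the plus strand, read towards COL4A2, and lies between the exons of both genes. The others are chr1:21937311-21937560 (HSPG2, minus strand), chr1:236065110-236065340 (NID1, minus strand) and chr1:183023170-183023419 (LAMC1, plus strand).
COL4A1-COL4A2: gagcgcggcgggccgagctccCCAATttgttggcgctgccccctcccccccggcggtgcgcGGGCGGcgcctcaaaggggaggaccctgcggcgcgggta
HSPG2: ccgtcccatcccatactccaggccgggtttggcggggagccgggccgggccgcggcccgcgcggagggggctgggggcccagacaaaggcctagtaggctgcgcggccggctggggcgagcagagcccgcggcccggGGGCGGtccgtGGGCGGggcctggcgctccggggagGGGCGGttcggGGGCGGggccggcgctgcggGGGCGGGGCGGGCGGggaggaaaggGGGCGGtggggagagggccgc
NID1: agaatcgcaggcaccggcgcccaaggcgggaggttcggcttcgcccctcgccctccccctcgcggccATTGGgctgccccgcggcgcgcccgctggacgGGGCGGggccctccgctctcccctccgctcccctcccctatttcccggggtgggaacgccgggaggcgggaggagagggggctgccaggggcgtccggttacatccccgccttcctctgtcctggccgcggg
LAMC1: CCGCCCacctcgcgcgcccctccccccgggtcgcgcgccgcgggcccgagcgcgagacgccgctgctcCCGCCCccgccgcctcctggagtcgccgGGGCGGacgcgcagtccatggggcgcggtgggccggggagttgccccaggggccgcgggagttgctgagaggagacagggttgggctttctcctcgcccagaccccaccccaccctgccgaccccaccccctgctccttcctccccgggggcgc

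The stretch between COL4A1 and COL4A2 is 78.0% G and C over its 100 bases and holds 1 CCAAT box and 1 GC box. The upstream sequence of HSPG2 holds 8 GC boxes, some of them overlapping and counted singly, and no CCAAT box. That of LAMC1 holds 3 GC boxes. Over the 250 bases before the start, all 10 upstream sequences of the 9 matched members (COL18A1 has 2 starts, and AGRN was not matched) held a GC box, as did 42.6% of the 35116 promoters in the table. These 10 sequences were 58.4% to 88.4% G and C, and those of COL4A1 and COL4A2 overlap. Promoters of like GC content were not compared. None of the 10 held the AP-1 motif TGANTCA, which 6.6% of all promoters held, or the TEAD motif GGAATG, which 11.9% held, on either strand. A CCAAT box was found before COL4A1, COL4A2 and NID1, the first 2 sharing theirs, and before 32.0% of all promoters. A TATAAA motif was found before 1 of the 10, a COL18A1 start, and before 10.7% of all.

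Collagen IV rose. Its most widespread trimer is made of COL4A1 and COL4A2 chains. COL4A1 (ENSG00000187498, minus strand of chromosome 13, chr13:110148963-110307157 on GRCh38) stood at 44.5, 40.6 and 45.2 CPM in L1high replicates 1, 2 and 3 and at 64.5, 66.9 and 59.4 CPM in L1low replicates 1, 2 and 3. The groups did not overlap, and COL4A1 rose by 0.55 ± 0.08 on the log2 scale (± standard error here and below; edgeR, adjusted p = 0.0016). COL4A2 (ENSG00000134871, plus strand, chr13:110305812-110513209) stood at 77.2, 61.9 and 81.3 CPM in L1high and at 105, 114 and 104 CPM in L1low libraries. L1high replicate 2 was the lowest library for both genes. COL4A2 rose by 0.55 ± 0.10 (edgeR, adjusted p = 0.0052). Within a library there were 1.69 ± 0.143 COL4A2 reads for each COL4A1 read in L1high cells and 1.69 ± 0.0549 in L1low cells (SD, n = 3). The 2 means thus differed by less than the spread between libraries (exact two-sided permutation test, p = 0.90, adjusted over 10 ratios 0.90). With 3 against 3 libraries this test cannot go below 0.10, so it cannot show that the ratio was unchanged.

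Centred on its mean over the 6 libraries, the profile of COL4A1 in log2 CPM lay closest to those of PTPN14, ENSG00000279753, IRF2BPL, CNN2 and FBLN1 (root mean square differences from 0.037 to 0.047), among the 6963 genes that averaged 5 or more in log2 CPM. COL4A2 was at rank 38, with a difference of 0.077, against a median of 0.31 over those genes. From COL4A1, the other ranked members lay from rank 313 (COL18A1) to 1631 (HSPG2). The same measure placed LAMB1 at rank 127 from LAMC1 (0.039, against a median of 0.13), with TNFRSF10B, SCNN1A and DSE at the top of that order. LAMB2 was at rank 1297 from LAMC1, and the other ranked members from 5206 (AGRN) to 6873 (HSPG2). NID1 averaged too low to be ranked.

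**Figure D1:**
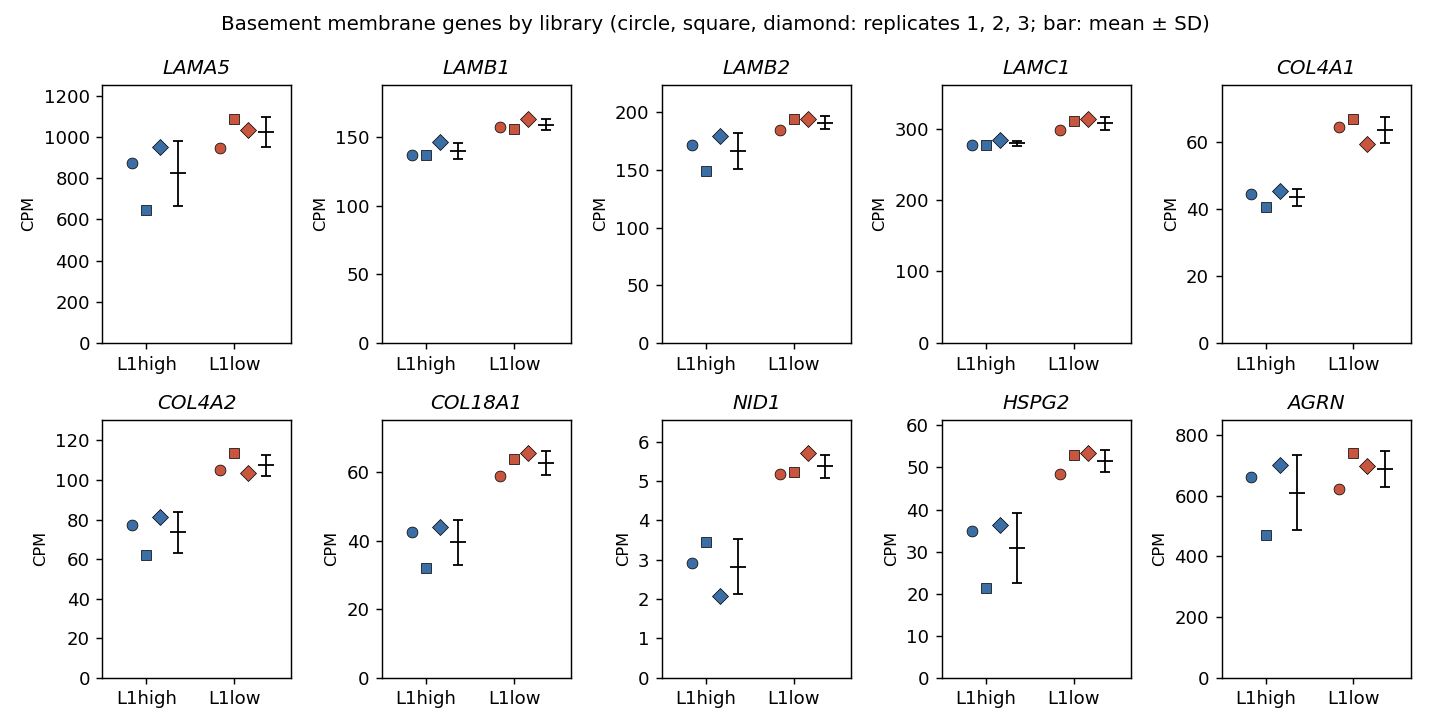
Each panel plots one basement membrane gene, with the level in CPM (axis from 0) for the 3 L1high libraries in blue and the 3 L1low libraries in red; circles, squares and diamonds are replicates 1, 2 and 3, and the bars are the mean ± SD. The groups are apart in 8 panels and overlap for LAMA5 and AGRN. The blue square, L1high replicate 2, is far below the other L1high libraries for LAMA5, COL18A1, HSPG2 and AGRN, and less so for COL4A2.

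Of the 3 heparan sulfate proteoglycans, HSPG2 and COL18A1 were called and AGRN was not. HSPG2 encodes perlecan, the large proteoglycan that bridges laminin, nidogen and collagen IV. It is on the minus strand of chromosome 1 (ENSG00000142798, chr1:21822244-21937310) and stood at 34.9, 21.3 and 36.3 CPM in L1high and at 48.6, 52.9 and 53.4 CPM in L1low libraries. The lowest L1low library was above the highest L1high library, and HSPG2 rose by 0.75 ± 0.16 on the log2 scale (edgeR, adjusted p = 0.014). Without L1low replicate 2 it was not called, at 0.73 (edgeR, adjusted p = 0.082). LDLRAD2, which lies over HSPG2 on the opposite strand, was also called (log2 fold change 0.68, from 7.27 ± 0.778 to 11.7 ± 0.811 CPM, SD, n = 3). The strand setting of the counting is not stated, so reads of the 2 genes may not be separate where they overlap. LDLRAD2 was picked out after its values were seen. COL4A1 and COL4A2 overlap each other at their starts, LAMA5 overlaps ADRM1 and LAMA5-AS1, LAMB1 overlaps DLD, COL4A2 overlaps COL4A2-AS1 and COL18A1 overlaps SLC19A1, on opposite strands, and the same limit holds for their counts. On the same strand, ENSG00000242590 (57.6 ± 5.89 CPM in L1high, 64.6 ± 5.35 in L1low, SD, n = 3) overlaps AGRN, and MIR4758 overlaps LAMA5. There even stranded counting may not separate the reads.

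COL18A1 encodes the chain of collagen XVIII, whose released C-terminal fragment is endostatin. On chromosome 21 (ENSG00000182871, plus strand, chr21:45405165-45513720), it stood at 42.5, 31.9 and 43.98 CPM in L1high and at 58.8, 63.7 and 65.5 CPM in L1low libraries. The groups were again apart, and COL18A1 rose by 0.67 ± 0.11 on the log2 scale (edgeR, adjusted p = 0.0040). The counts do not tell its 2 starts apart. COL18A1 held 1.31 ± 0.162 reads for each HSPG2 read in L1high and 1.21 ± 0.0107 in L1low cells (SD, n = 3), which overlapped (exact two-sided permutation test, p = 0.50, adjusted 0.63).

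Agrin, known from the neuromuscular junction and present in many epithelial basement membranes, was by far the most abundant of these proteoglycan transcripts and did not pass the test. AGRN (ENSG00000188157, chr1:1020120-1056118, plus strand) stood at 661, 470 and 700 CPM in L1high and at 624, 740 and 699 CPM in L1low libraries, so that the groups overlapped. Its log2 fold change was 0.17 (95% interval -0.10 to 0.44; edgeR, adjusted p = 0.45), and 0.015 without L1high replicate 2. For each HSPG2 read there were 18.9, 22.0 and 19.3 AGRN reads in the L1high libraries and 12.8, 14.0 and 13.1 in the L1low libraries. This ratio did not overlap between the groups and was 0.66 times as high in L1low cells (exact two-sided permutation test, p = 0.10, the smallest that 3 against 3 libraries allow, adjusted 0.20).

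The nidogens moved in opposite directions. NID1, which links laminin gamma 1 to collagen IV, was the member with the lowest level and the largest rise. NID1 (ENSG00000116962, chr1:235975830-236065109, minus strand) held 62, 71 and 34 counts in the L1high libraries and 94, 94 and 101 counts in the L1low libraries, or 2.92, 3.46 and 2.07 CPM against 5.17, 5.24 and 5.70 CPM. The groups did not overlap, and NID1 rose by 0.91 ± 0.19 on the log2 scale (edgeR, adjusted p = 0.013). Without L1high replicate 1, or without L1low replicate 2, it was not called (edgeR, adjusted p = 0.058 in both). NID2, the other nidogen and not a member, fell from 30.6 ± 0.596 to 17.2 ± 1.64 CPM (SD, n = 3; log2 fold change -0.83; edgeR, adjusted p = 3.05e-04). Per transcript length, the level of NID2 was 4.91 CPM per kilobase and that of NID1 was 0.71, as means over the 6 libraries.

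None of the 4 laminin chains passed the test. LAMA5 pairs with LAMB1 or LAMB2 and with LAMC1 in laminin-511 and laminin-521, the main laminins of adult epithelial basement membranes. LAMA5 (ENSG00000130702, chr20:62307955-62367312, minus strand) stood at 874, 645 and 951 CPM in L1high and at 949, 1090 and 1036 CPM in L1low libraries. L1high replicate 3 lay above L1low replicate 1, and the log2 fold change of 0.32 was not called (95% interval 0.06 to 0.57; edgeR, adjusted p = 0.13). Without L1high replicate 3 LAMA5 was called, at 0.44 (edgeR, adjusted p = 0.030), and without L1high replicate 2 the value was 0.17.

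The beta and gamma chains had narrow spreads. LAMB1 (ENSG00000091136, chr7:107923799-108003213, minus strand) stood at 137, 137 and 147 CPM in L1high and at 158, 156 and 164 CPM in L1low libraries. LAMB2 (ENSG00000172037, chr3:49121114-49133118, minus strand) stood at 172, 149 and 179 against 185, 195 and 194 CPM. LAMC1 (ENSG00000135862, chr1:183023420-183145592, plus strand) stood at 277, 277 and 284 against 297, 310 and 314 CPM. In all 3 the groups were apart, by little. Their log2 fold changes were 0.18, 0.20 and 0.14, and edgeR gave adjusted p-values of 0.11, 0.145 and 0.18. The 95% intervals ran from 0.045 to 0.32, from 0.031 to 0.37 and from 0.009 to 0.27. LAMB2 stood at 0.12 without L1high replicate 2, and with GC and length offsets LAMB2 stood at 0.099 and LAMC1 at 0.061. The ratios LAMB2/LAMB1 (1.19 ± 0.0887 in L1high, 1.20 ± 0.0391 in L1low), LAMB1/LAMC1 (0.502 ± 0.0132 and 0.518 ± 0.0138) and LAMA5/LAMC1 (2.95 ± 0.542 and 3.33 ± 0.164, SD, n = 3) overlapped between the groups.

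**Figure D2:**
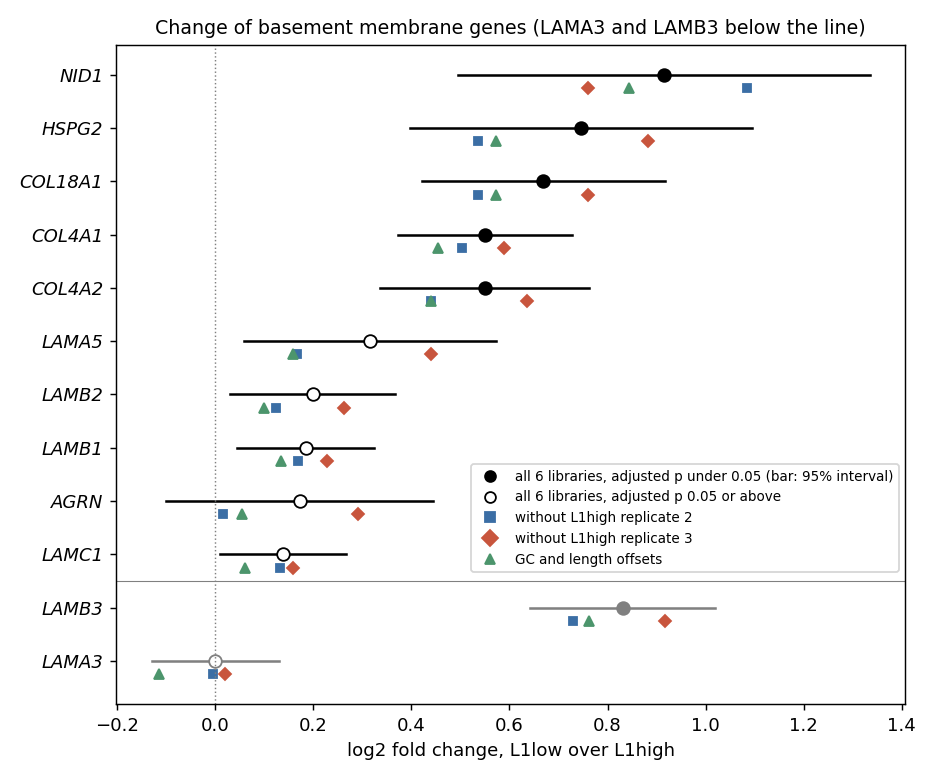
Log2 fold change of L1low over L1high cells for the 10 basement membrane genes and, below the line in grey, LAMA3 and LAMB3; circles are the values over all 6 libraries with their 95% intervals, filled where the adjusted p was under 0.05, and the small symbols are the values without L1high replicate 2, without L1high replicate 3 and with GC and length offsets. Every small symbol of the 5 called members is above 0.4, while those of AGRN lie between 0.015 and 0.29.

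LAMB3 and LAMA3, chains of the laminin that anchors basal epithelial cells through hemidesmosomes, were set beside the members. The beta chain LAMB3 rose from 341 ± 44.2 to 606 ± 3.14 CPM (SD, n = 3; log2 fold change 0.83; edgeR, adjusted p = 1.1e-04). The alpha chain LAMA3 stood at 361 ± 5.18 and 361 ± 13.1 CPM (SD, n = 3), with a 95% interval of the log2 fold change from -0.13 to 0.13. The sign of this value differed between scalings. For each LAMB1 read there were 2.60, 2.13 and 2.57 LAMB3 reads in L1high and 3.82, 3.90 and 3.70 in L1low libraries. LAMA3/LAMA5 was lower in all L1low libraries (0.323 to 0.374) than in the L1high libraries (0.386 to 0.555). In an exact two-sided permutation test both of these ratios gave p = 0.10, the smallest possible with 3 against 3 libraries, and an adjusted p of 0.20 over the 10 ratios. NID1/LAMC1 and AGRN/HSPG2 did not overlap between the groups either.

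**Figure D3:**
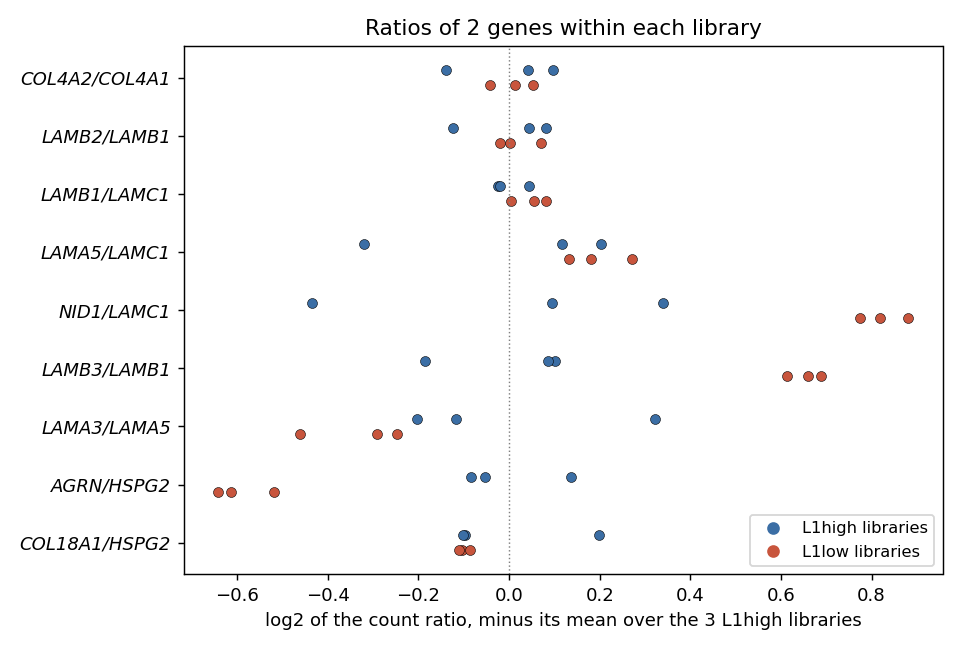
Ratio of the counts of 2 genes within each library, on a log2 scale and relative to the mean of the L1high libraries, for 9 pairs; blue points are L1high and red points L1low libraries. The groups are apart for NID1/LAMC1, LAMB3/LAMB1, LAMA3/LAMA5 and AGRN/HSPG2, and overlap for the ratios within collagen IV and within the laminin-511 and laminin-521 chains.

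Levels can be set beside each other between genes per kilobase of the canonical transcript. On this scale AGRN (88.6 CPM per kilobase over the 6 libraries) and LAMA5 (80.9) were highest. Their ranges overlapped in both groups, but within every library AGRN was above LAMA5. LAMC1 (37.0), LAMB2 (31.5) and LAMB1 (26.5) followed, each apart from the next in both groups. COL4A2 (14.0), COL18A1 (9.44) and COL4A1 (8.18) came next, and the last 2 overlapped in L1high cells (5.90 to 8.13 for COL18A1 and 6.20 to 6.91 for COL4A1) but not in L1low cells. HSPG2 (2.87) and NID1 (0.71) were lowest. The 5 called genes thus held the 5 lowest levels, and the laminin chains and AGRN the 5 highest. Over the union of all annotated exons LAMB1 was at 8.05 and COL4A2 at 4.69 CPM per kilobase, so these levels depend on the transcript model. On that scale LAMA5 (64.7) lay above AGRN (60.3) and COL18A1 (6.03) above COL4A2, and the called genes were again the 5 lowest.

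**Figure D4:**
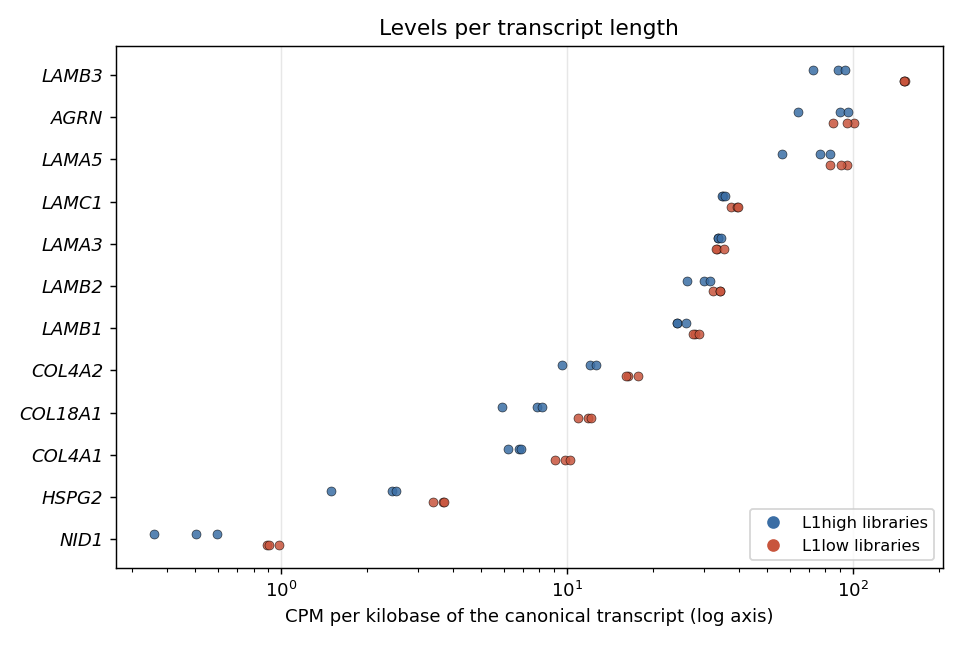
CPM per kilobase of the canonical transcript on a log axis for the 10 basement membrane genes, LAMA3 and LAMB3, with 1 point per library, L1high in blue and L1low in red. The called genes COL4A1, COL4A2, COL18A1, HSPG2 and NID1 lie at the bottom of the order, and the red points are right of the blue points for each of them.

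L1high replicate 2 was low for transcripts rich in G and C. Among genes averaging 5 or more in log2 CPM, its log2 CPM minus the mean of L1high replicates 1 and 3 had a median of 0.18 for transcripts of 30.7% to 41.3% GC and of -0.22 for those of 61.2% to 78.7% GC. The 10 transcripts ran from 48.8% GC (LAMC1) to 67.6% (AGRN), against a median of 48.6% over those genes. In L1high replicate 2 the same difference was -0.50 for LAMA5 (66.4% GC), -0.53 for AGRN, -0.74 for HSPG2 (64.5%), -0.44 for COL18A1 (67.2%) and -0.36 for COL4A2 (61.8%), whereas it was -0.019 for LAMC1, -0.048 for LAMB1 and 0.47 for NID1. L1high replicate 3, set against replicates 1 and 2, ran the other way, from -0.18 to 0.17 over the same GC ranges. This is not a separate observation, because each library is set against the rest of its group. Between the same lowest and highest ranges, L1low replicate 1 went from 0.16 to -0.085 and L1low replicate 3 from -0.18 to 0.033. L1low replicate 2 had 0.027 and 0.059. With GC and length offsets in the fit, an alternative chosen after seeing the data, the same 5 genes were called. That fit called 14.1% of all genes it tested. The log2 fold changes were 0.45 for COL4A1, 0.44 for COL4A2, 0.57 for COL18A1, 0.57 for HSPG2 and 0.84 for NID1, and LAMA5 stood at 0.16. Without L1high replicate 2, where 6.56% of all genes tested were called, the same 5 were called too. HSPG2 and COL18A1 were both at 0.54, COL4A2 at 0.44, COL4A1 at 0.503 and NID1 at 1.08.

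**Figure D5:**
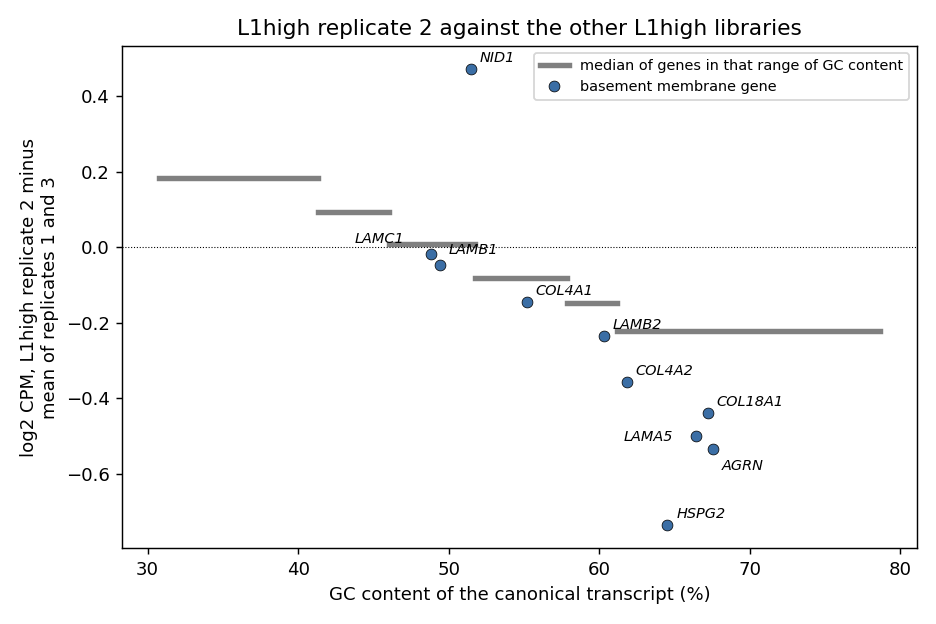
Log2 CPM of L1high replicate 2 minus the mean of L1high replicates 1 and 3 against the GC content of the transcript in percent; blue points are the 10 basement membrane genes and grey bars the medians of genes averaging 5 or more in log2 CPM, in ranges of GC content. The grey bars fall from 0.18 to -0.22, the points of LAMA5, AGRN, HSPG2, COL18A1, COL4A2 and LAMB2 lie below the lowest bar, and NID1 lies at 0.47.

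Other genes of the basement membrane were taken from a list of 32, of which 21 were in the table. Of these, 10 were called higher (4.58% of all genes tested were) and 1, NID2, lower (3.37%), with a median log2 fold change of 0.32. COL17A1 (log2 fold change 1.301) and COL7A1 (1.27), collagens of the hemidesmosome and of the anchoring fibril, rose most among those averaging 1 or more in log2 CPM. Among the other laminin and collagen IV chains in the table, named as families after their values were seen, LAMB4 (42.9 ± 3.04 to 79.6 ± 7.11 CPM), LAMA2 (14.3 ± 1.67 to 22.6 ± 0.762), COL4A6 (27.6 ± 1.53 to 36.3 ± 2.56) and COL4A4 (4.497 ± 0.242 to 6.43 ± 0.351, all SD, n = 3) rose. COL4A5 (0.29 on the log2 scale; edgeR, adjusted p = 0.068) and COL4A3 (-0.05, adjusted p = 0.94) were not called.

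Of 17 genes for cell surface receptors of these proteins, 16 were in the table. Of the 16, 6 were called higher (4.58% of all genes tested were) and 1 lower (3.37%), with a median log2 fold change of 0.25. ITGB4, the beta chain of the laminin-binding integrin of hemidesmosomes, rose from 614 ± 67.8 to 1183 ± 40.6 CPM, and BCAM, an immunoglobulin family receptor for the laminin alpha 5 chain, rose from 762 ± 58.3 to 1372 ± 48.4 CPM (SD, n = 3; log2 fold changes 0.95 and 0.85). ITGA1, the alpha chain of a collagen-binding integrin, fell from 53.6 ± 4.53 to 23.7 ± 3.38 CPM (SD, n = 3; log2 fold change -1.18).

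Of 22 genes for collagen modification, folding and export, which also serve other collagens, 4 were called higher (4.58% of all genes tested were) and none lower (3.37%). The median log2 fold change of the 22 was 0.09. P4HA1, a catalytic subunit of prolyl 4-hydroxylase, rose by 0.402 and P3H2, a prolyl 3-hydroxylase that acts on collagen IV, by 0.39. Leaving out 1 library ended the call of P4HA1 in 2 cases (adjusted p up to 0.085 in edgeR's test) and that of P3H2 in 4 (up to 0.16). Of 20 genes that build, modify or cleave the heparan sulfate carried by perlecan, agrin and collagen XVIII, 19 were in the table. None of the 19 was called in edgeR's quasi-likelihood test (7.95% of all genes tested were). Of the 19, 5 had an unadjusted p under 0.05 (23.3% of all genes tested had), and the median log2 fold change of the 19 was 0.10. In these bulk libraries, more RNA per cell and more cells carrying a transcript cannot be told apart.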

How the data were processed

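Per the paper's methods, the authors sequenced TruSeq stranded mRNA libraries as paired-end reads, used BWA for alignment to GRCh38 and featureCounts with Ensembl release 94 annotation for counting. Their deposited values are raw counts per gene of 6 libraries, without normalization. Tool versions and the strand and multi-mapping settings are not given in the sources used here. The submitters' processing notes also name DESeq2. All 19469 listed genes exceed 1 CPM in at least 2 libraries.

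Symbols, positions, GC content and canonical transcript lengths came from GENCODE 44 (GRCh38), which matched 19344 identifiers. In R 4.3.3, edgeR 4.0.16 was run on all 6 libraries with TMM factors, filterByExpr (19467 genes kept), the quasi-likelihood test and a threshold of 0.05 on p-values adjusted by Benjamini-Hochberg. All adjusted p-values printed beside edgeR come from it unless another setting is named. Positive log2 fold changes mean higher in L1low cells. The standard error is the fold change divided by the square root of F. The fit was made at a common biological coefficient of variation of 0.0926. It was tested on simulated data. The closest pair of libraries, L1high replicates 1 and 3, differed by more than counting noise, with a chi-square per degree of freedom of 3.66.

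All 6 libraries entered the main comparison because the labels group them all. The study's supplementary table leaves out L1high replicate 3, and that selection, each other replicate left out, a replicate block, DESeq2 1.42.0, RLE, upper-quartile and library-total scaling and 2 filters were alternatives. GC and length offsets were added after seeing the data. The members, lists and ratios were chosen with earlier results of these data known. Genes named are the members, LAMA3 and LAMB3, L1CAM, up to 2 called rises and 2 called falls per list at an average log2 CPM of at least 1 (except where said otherwise), the 5 genes most like COL4A1 and the 3 most like LAMC1. A few results that the same rule would name, 1 of the 10 ratios among them, are not reported here.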

Additional observations from a re-analysis of the deposited data

How the results depend on the processing

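All 10 members kept a positive log2 fold change in each of 140 values over 14 alternatives. The alternatives refit the same libraries, so these values are not independent of each other or of the main fit. COL4A1 (0.45 to 0.61), COL4A2 (0.44 to 0.64) and COL18A1 (0.54 to 0.76) were called in all 14, with adjusted p of up to 0.020, 0.047 and 0.033. HSPG2 (0.54 to 0.88) was called in 13, and NID1 (0.76 to 1.08) in 12. LAMB1, LAMB2, LAMC1 and AGRN were called in none. Leaving out 1 library in turn, the number of members called ran from 3 (without L1low replicate 2) to 6 (without L1high replicate 3), and the number of genes called from 627 (without L1low replicate 2, 3.22% of genes tested) to 1473, with 674 without L1high replicate 1. It was 1548 over all 6 libraries, 2363 with the replicate block and 2724 with GC and length offsets. With the block, LAMA5 was called as well (0.33, adjusted p = 0.034 in edgeR's test). Same-numbered libraries deviated from their group means with correlations of 0.217, 0.0803 and 0.489, so the numbers were not taken as pairs, and L1high replicate 2 was closer to L1low replicate 1 than to replicate 2. LAMA3 changed sign, to -0.00010 with the block, -0.12 with GC and length offsets, -0.0011 with DESeq2 and with RLE factors, and -0.011 with library totals, and ran from -0.019 to 0.021 when 1 library was left out. Of the other named genes, P4HA1 was not called without L1high replicate 1 or L1low replicate 2 (adjusted p up to 0.085), P3H2 without L1high replicate 1 or any 1 L1low library (up to 0.16), CLDN4 without L1high replicate 1 or 3 or L1low replicate 1 or 2 (up to 0.11), and EPCAM without any 1 library except L1high replicate 3 (up to 0.18), all in edgeR's test. The filter on low counts removed 2 genes and tests little. The differences of the 10 ratios moved by less than the spread between libraries under all their alternatives. For leaving out 1 library and for the replicate block the arithmetic fixes this outcome, so it is no sign of stability. The log2 difference of LAMA5/LAMC1 was 0.195 over all 6 libraries, 0.035 without L1high replicate 2 and 0.297 without L1high replicate 3. Counts of 34 to 101 limit NID1.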
